A study of Drosophila melanogaster with 2 samples.

Results

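Insulator and architectural protein genes encode the DNA-binding proteins and cofactors that divide Drosophila chromosomes into domains. The group described here comprised 10 genes, Chro, Dref, BEAF-32, CTCF, su(Hw), Cp190, pzg, M1BP, mod(mdg4) and Trl, out of 13945 annotated protein-coding genes. They were found by gene name, and every peak of the deposited lists was taken whose summit lay within 2 kb of a transcription start site (TSS) or inside the gene. The genes were selected on earlier results of the same peak lists, in which Chro and Dref were already among the genes with strong promoter peaks. Their peak strengths are therefore given as a description, with no test.

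The lists come from ChIP-seq of schlank, a ceramide synthase that also carries a homeodomain, in whole Drosophila melanogaster embryos aged 0 to 24 h with the sexes pooled. The embryos were of a transgenic line stably expressing schlank with GFP at its C terminus. The 2 samples are biological replicates of this 1 group, so no treatment, genotype or stage is compared. The antibody field names schlank, whereas the free-text description of both samples speaks of an input control. They are treated as schlank ChIP on the strength of the antibody field. In whole embryos, strong occupancy in few cells and weak occupancy in many cannot be told apart.

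Proteins of this group act in layers. BEAF-32, CTCF, su(Hw), Dref, M1BP and the GAGA factor encoded by Trl recognise DNA sequences, whereas Cp190 and mod(mdg4) proteins are BTB-domain cofactors that DNA-bound insulator proteins recruit. Chro and pzg encode partner proteins of polytene interbands, the decondensed stretches that often hold promoters of broadly active genes. The results below concern schlank-GFP peaks at the genes that encode these proteins, not the sites that the proteins themselves bind.

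The sequences at 7 of the summits are shown as illustration. They are the strongest summits of Chro, Dref, Cp190, Trl and mod(mdg4), the M1BP summit for its base composition, and an internal Trl promoter for its GAGA element. Each is from the plus strand of the NCBI Release 6 assembly, which has dm6 coordinates, up to 50 bp to either side of the summit with annotated exons left out. Capitals mark matches to the factor motifs searched, so a printed stretch in lower case throughout holds none. The Chro line is a short window around the match nearest to the summit, which lay in an untranslated or non-coding exon.
Chro, chr3L:22878880-22878908: tgtattgcctgtCGATAgctttaaactaa
Dref, chr2L:9967259-9967312: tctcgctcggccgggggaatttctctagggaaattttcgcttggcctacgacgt
Cp190, chr3R:15275406-15275506: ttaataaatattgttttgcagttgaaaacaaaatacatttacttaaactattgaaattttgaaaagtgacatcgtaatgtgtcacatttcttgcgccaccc
M1BP, chr3R:8731872-8731972: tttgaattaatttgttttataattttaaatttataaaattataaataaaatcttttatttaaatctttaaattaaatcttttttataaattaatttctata
Trl, strongest intronic summit, chr3L:14759459-14759559: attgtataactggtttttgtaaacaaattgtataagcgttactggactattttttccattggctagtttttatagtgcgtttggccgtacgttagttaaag
Trl, internal promoter, chr3L:14758216-14758316: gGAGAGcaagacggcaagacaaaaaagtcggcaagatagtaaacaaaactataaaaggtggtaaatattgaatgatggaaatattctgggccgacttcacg
mod(mdg4), strongest summit, chr3R:21365489-21365541: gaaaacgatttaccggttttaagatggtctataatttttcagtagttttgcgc

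Of the 10 genes, 7 had at least 1 summit of the thresholded set, the 2790 peaks that the authors' reproducibility procedure gave. By the same rule 21.0% of all protein-coding genes had one. Within 500 bp of a TSS the count was 6 of 10, namely Chro, Dref, Cp190, pzg, M1BP and Trl, and the share of all protein-coding genes was 12.7%. Since the genes were chosen with these values known, nothing is read from the difference. The 7 genes held 14 thresholded summits, 6 of them at Trl, 3 at mod(mdg4) and 1 at each of the others. Of these summits 7 lay in introns, 5 in intergenic sequence and 2 in untranslated or non-coding exons.

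The peaks spanned nearly the whole range of strength. Signal is the strength that the authors' peak caller gave each peak. Its scale is not stated and differs between lists, so ranks within a list, with 1 the strongest, are compared instead. The strongest promoter peak of the 6 genes had a median rank of 325.5 in the thresholded set (quartiles 165.25 and 1094), against 1234.5 (561.75 and 1994) for all 1776 protein-coding genes with such a peak. At the edge of the threshold, pzg lay just inside with a pooled signal of 127 and BEAF-32 just outside with 110, and the weakest thresholded peak had 121.

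**Figure D1:**
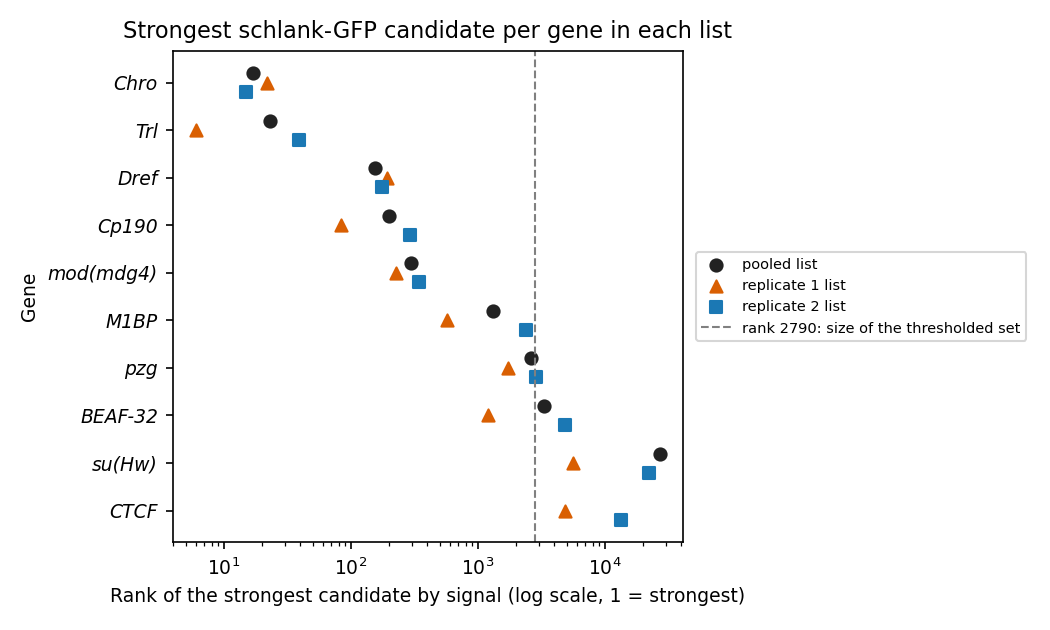
Rank of the strongest candidate of each gene by signal (horizontal axis, log scale, 1 is strongest) in the pooled list and in the list of each replicate; the dashed line marks rank 2790, the size of the thresholded set. Chro and Trl lie within the first 40 ranks of every list, pzg lies near the line, and CTCF has no symbol for the pooled list.

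Chro had the strongest promoter peak of the group. It encodes Chromator, a chromodomain protein of interbands that also associates with the mitotic spindle. Its summit (FBgn0044324, dm6 3L, summit 22878895, 89 bp downstream of a TSS) had a signal of 385 in replicate 1, 1066 in replicate 2 and 1453 in the pooled list. The ranks were 22, 15 and 17, so both replicates placed it among their strongest peaks. Replicate summits lay 8 and 10 bp from the pooled summit. The letters CGATA, which form the core recognised by BEAF-32, began 3 bp from the summit, and are the capitals in the Chro line above.

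Chro shares its promoter region with Ssl1, which encodes a subunit of the transcription and repair factor TFIIH and is transcribed away from Chro from a TSS 105 bp upstream. The Chro summit lay 194 bp from the Ssl1 TSS. Chro has 3 annotated start sites. The summit lay downstream of the outermost one, at 22878984, but upstream of the inner ones, at 22878768 and 22878184.

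Dref, which encodes the BED-finger factor that binds the DNA replication-related element (DRE), had a single thresholded summit (FBgn0015664, 2L, summit 9967309). Its signal was 165 in replicate 1, 397 in replicate 2 and 578 in the pooled list, with ranks 194, 176 and 154. The order of the 3 lists was thus close. The summit lay 80 bp upstream of Dref and 4 bp from the TSS of RpL13, a ribosomal protein gene transcribed in the other direction, so the peak cannot be assigned to either gene.

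Cp190 encodes the zinc-finger BTB protein that several insulator proteins recruit. The summit (FBgn0000283, 3R, 15275456, 215 bp upstream of a TSS) had a signal of 222 in replicate 1, 313 in replicate 2 and 530 in the pooled list. It ranked 83 in replicate 1 and 293 in replicate 2, in the upper part of both lists. The divergent gene CG4338 starts 281 bp from Cp190, and the summit lay 66 bp from its TSS.

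M1BP, a zinc-finger factor of promoters that carry core promoter motif 1, had a weaker peak that the replicates ranked less alike. The summit (FBgn0037621, 3R, 8731922, 224 bp upstream of the TSS) had a signal of 96.8 in replicate 1 (rank 572), 97.0 in replicate 2 (rank 2376) and 190 in the pooled list (rank 1308). It lay between M1BP and the divergent gene CG8202, 169 bp from the TSS of CG8202. GC content within 100 bp of this summit was 17.4%, and only 2 of the 2790 thresholded summits, this peak included, were that poor in GC. The printed window is almost entirely A and T.

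The peak at pzg was the weakest. This gene encodes putzig, or Z4, a zinc-finger partner of Chromator that also belongs to a complex with Dref and the TBP-related factor Trf2. The summit (FBgn0259785, 3L, 21285993, 106 bp upstream of the TSS) had a signal of 53.6 in replicate 1 (rank 1720), 86.6 in replicate 2 (rank 2890) and 127 in the pooled list (rank 2602). In replicate 2 it therefore fell outside the 2790 strongest candidates. The divergent gene CG12974 starts 137 bp from pzg and its TSS was 31 bp from the summit, which had a GC content of 51.2%, the highest of the 14.

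These 5 promoters have a common layout. Chro, Dref, Cp190, pzg and M1BP each have a protein-coding gene that starts on the other strand 84 to 393 bp upstream. For the closest pair of opposed start sites, the pooled summit lay between them in 4 of the 5. The exception was Chro, whose summit lay between the Ssl1 TSS and the inner Chro start sites only. In the other 4 the summit was nearer to the TSS of the neighbour than to that of the gene named here. The replicate 2 summit of Dref and the replicate 1 summit of pzg lay beyond the neighbour's TSS. Chromatin fragments of 200 to 800 bp are longer than the spacing of 84 bp at Dref, 105 bp at Chro and 137 bp at pzg. The same count over all divergent promoters was not made, so this placement is not read as a trait of these genes. By the annotation, with or without a peak, 7 of the 10 genes had a divergent protein-coding TSS within 1000 bp upstream of a start site. The share of all protein-coding genes was 36.2%. The other 2 were Trl, whose partner Mgat4a starts 979 bp away, and su(Hw), whose partner Polr2I starts 500 bp away. Of the 11 thresholded summits of the group that had a protein-coding TSS within 500 bp, 6 (54.5%) had such TSSs on both strands, compared with 32.6% of all 1382 such summits. These were the 5 promoters above and the strongest mod(mdg4) summit, whose start sites belong to the precursor units described below. The genes were chosen with peak results known, so nothing is read from either difference.

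**Figure D2:**
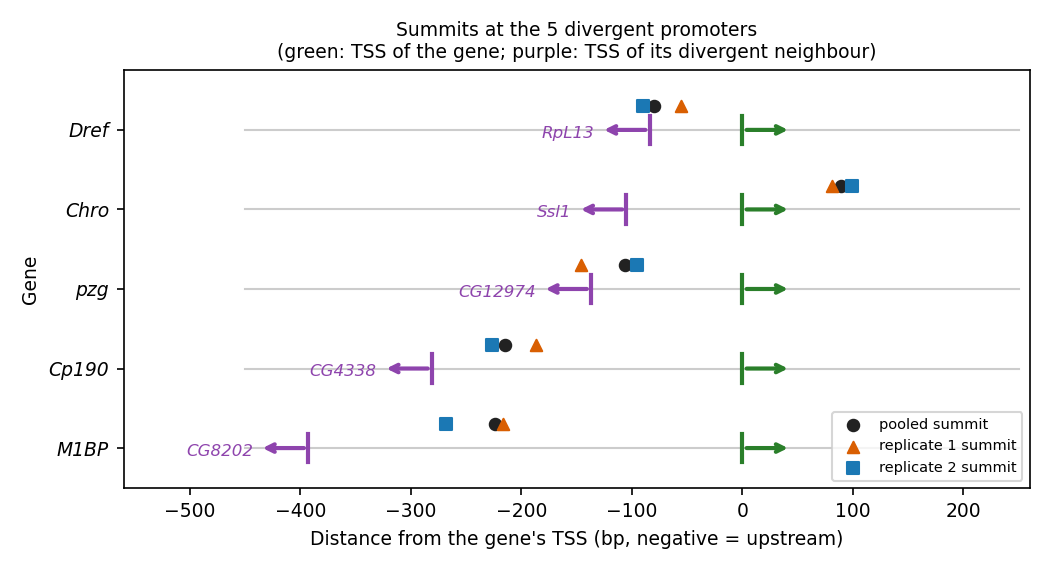
Positions of the pooled, replicate 1 and replicate 2 summits (symbols) relative to the TSS of each gene (green, at 0 bp) and that of its divergent neighbour (purple), with negative distances upstream. The pooled summits of Dref, pzg, Cp190 and M1BP lie between the opposed start sites. The replicate 1 summit of pzg and the replicate 2 summit of Dref lie just beyond that of the neighbour. The Chro summits lie 81 to 99 bp downstream of the outermost Chro TSS, the only one of Chro shown.

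Trl held 6 thresholded summits. The gene encodes the GAGA factor, a BTB zinc-finger protein that binds GA-rich repeats and opens promoter chromatin. At least as many were found at 20 of the 13945 protein-coding genes (0.143%). Among the 1980 protein-coding genes of 6.56 to 26.24 kb, 0.354% held as many, and Trl spans 13.12 kb (FBgn0013263, 3L, 14747929 to 14761049, minus strand). The 6 summits covered the first part of the gene and the sequence upstream, with gaps of 877 to 2062 bp between neighbours. No pooled candidate lay in the distal part of the gene, beyond the summit at 14756176.

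The strongest Trl peak lay inside an intron (summit 14759509), 1540 bp from the nearest Trl TSS. Its signal was 556 in replicate 1, 787 in replicate 2 and 1336 in the pooled list. The ranks were 6, 39 and 23, the highest replicate 1 rank of any summit in the group. GC content around it was 25.4%, at or below which lay 1.79% of thresholded summits. Its printed window contained none of the 7 motifs searched.

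The Trl summit on which the replicates differed most was at an internal start site (summit 14757201, 135 bp downstream of a TSS). It had a signal of 43.1 in replicate 1 (rank 2545), 309 in replicate 2 (rank 299) and 348 in the pooled list (rank 452). The pooled rank thus lay closer to that of replicate 2. GC content there was 47.3%, the second highest of the 14 summits.

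A further internal promoter summit (14758266) lay 304 bp upstream of a start site that Trl shares with CG42507. Its signal was 61.0 in replicate 1 (rank 1372), 145 in replicate 2 (rank 1181) and 214 in the pooled list (rank 1074), so the ranks were alike. The letters GAGAG, the core element bound by the GAGA factor itself, occurred at 2 positions within 100 bp of it, beginning 49 and 54 bp from the summit. The nearer is in capitals in its line above, and the other begins before the printed stretch. The intronic summit at 14760386 (rank 1978 in replicate 1, 1954 in replicate 2 and 1841 pooled) also had GAGAG within 100 bp, beginning 95 bp from the summit.

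The intronic summit at 14756176 was placed at the same base in all lists and ranked 1011 in replicate 1, 1757 in replicate 2 and 1338 in the pooled list. Upstream of Trl, the summit at 14762448 (ranks 371, 655 and 498 in the same order) lay 1399 bp from the nearest Trl TSS but 420 bp downstream of the TSS of Mgat4a, a glycosyltransferase gene, inside an intron. Its place in this group follows from the 2 kb window. At the most upstream Trl TSS itself, the pooled list had only a candidate of rank 10771 (signal 54.3, 360 bp upstream), matched by rank 3963 in replicate 1 and by no replicate 2 candidate within 500 bp.

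**Figure D3:**
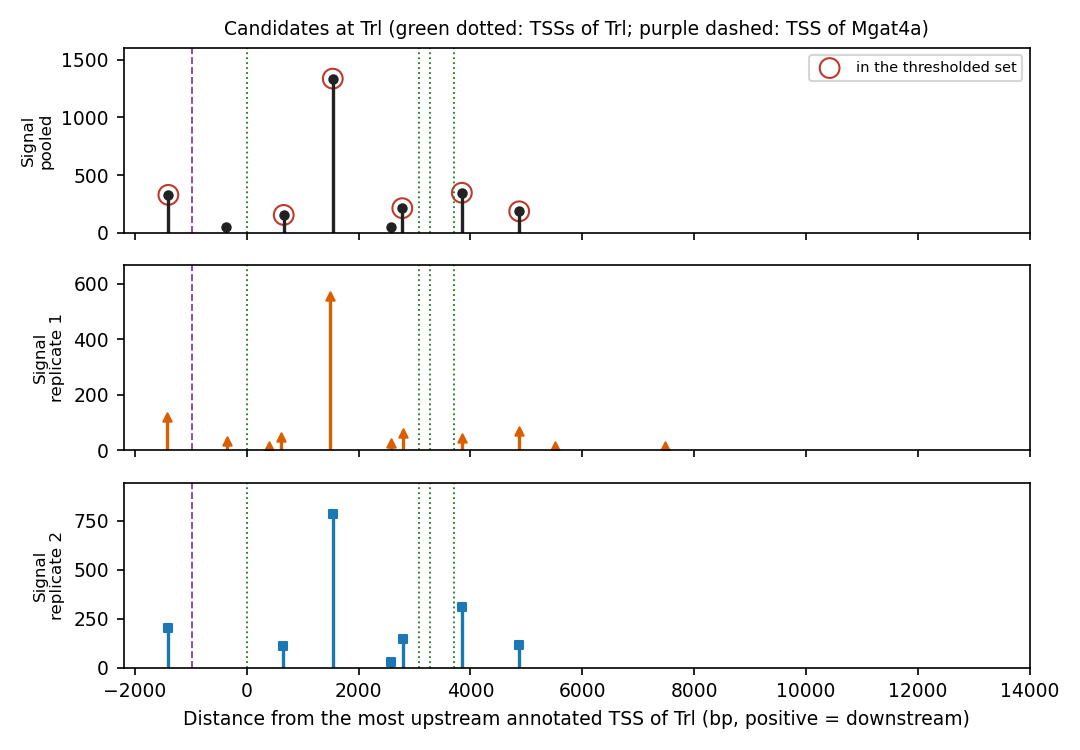
Signal of every candidate at Trl (vertical axes, in the units of each list) against the distance in bp from its most upstream TSS, for the pooled list and for each replicate; red circles mark thresholded peaks. The tallest peak in all 3 panels is the intronic one, 1540 bp downstream in the pooled list, and the peak just past the last internal TSS is tall in replicate 2 and small in replicate 1.

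mod(mdg4) had a strong peak (rank 296 in the thresholded set) and weaker ones (ranks 2001 and 2076), none of them at its own promoter. The gene encodes a family of BTB proteins that share an N-terminal part, and its mRNAs are joined by trans-splicing to 3' exons transcribed as separate precursors, some from the opposite strand. The annotation lists 22 transcripts from 1 TSS (FBgn0002781, 3R, 21350846 to 21377401, minus strand) and 23 precursor units, named pre-mod(mdg4), with 7 distinct start sites. Of the thresholded summits at mod(mdg4), both that lay inside the gene were at start sites of such units.

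The stronger (summit 21365491) had a signal of 155 in replicate 1 (rank 226), 284 in replicate 2 (rank 345) and 436 in the pooled list (rank 296). It lay 11910 bp downstream of the mod(mdg4) TSS, 3 bp from the start of pre-mod(mdg4)-E and 118 bp upstream of a start site on the plus strand that 7 units share, among them pre-mod(mdg4)-U, -V and -W. The other (summit 21373584) lay 9 bp from the common start of pre-mod(mdg4)-AA, -N and -O. It had a signal of 58.3 in replicate 1 (rank 1494), 89.1 in replicate 2 (rank 2746) and 149 in the pooled list (rank 2001). Together these peaks marked 4 of the 7 start sites, which serve 13 of the 23 units. None of the other 3 start sites had a pooled or replicate candidate within 500 bp. Of the 4, 3 share the stronger peak, so they are not separate observations. Precursors -U and -V also have an unmarked start site.

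At the mod(mdg4) TSS the pooled list had a candidate of signal 76.0 (rank 6061, 150 bp downstream). In replicate 1 a candidate 15 bp from the TSS had rank 2344, within the 2790 strongest, and in replicate 2 the candidate 151 bp away had rank 20468. The replicates thus ranked the main promoter far apart and the precursor start sites more alike. The remaining thresholded summit (21378778, ranks 885, 3977 and 2076 in replicate 1, replicate 2 and the pooled list) lay 1377 bp upstream of mod(mdg4) and 199 bp upstream of tin, the homeobox gene of heart formation. Among 1238 protein-coding genes of 13.28 to 53.11 kb, 7.67% held at least 3 thresholded summits, as mod(mdg4) did.

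**Figure D4:**
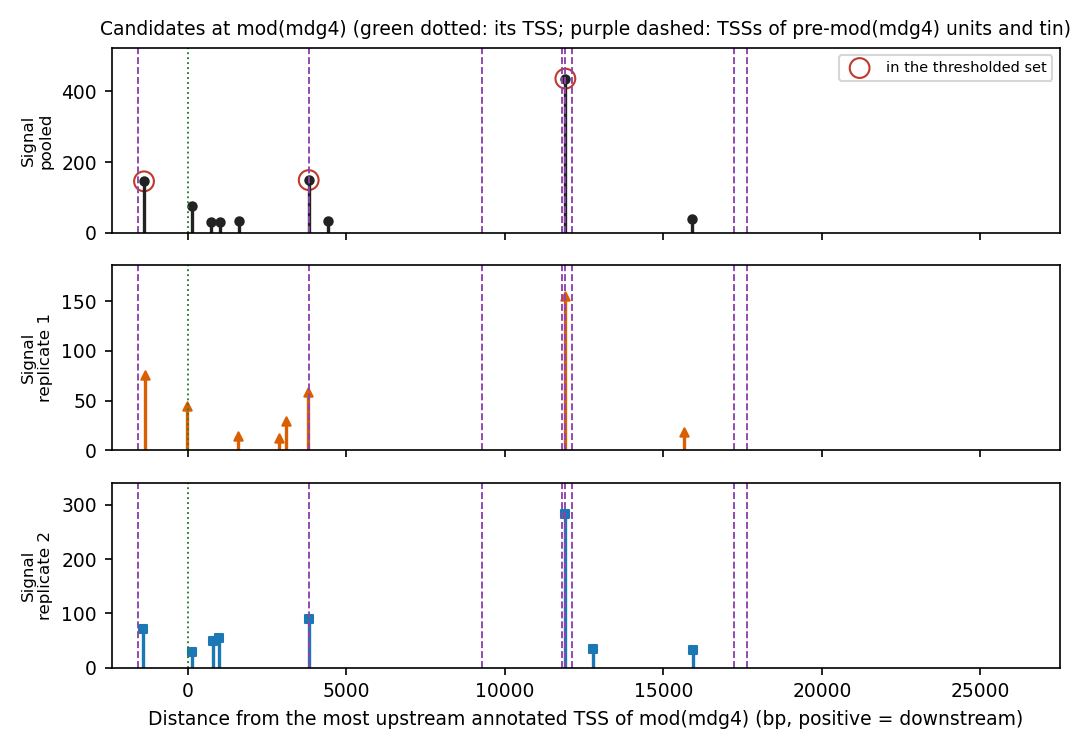
Signal of every candidate at mod(mdg4) (vertical axes, in the units of each list) against the distance in bp from its TSS (green), with the start sites of the pre-mod(mdg4) units and of tin in purple; red circles mark thresholded peaks. The tallest peak in each panel is 11910 bp downstream in the pooled list, at a group of precursor start sites, and the candidates at the mod(mdg4) TSS are low.

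The remaining 3 genes, BEAF-32, CTCF and su(Hw), carried no thresholded summit. All encode DNA-binding insulator proteins. BEAF-32 (FBgn0015602, 2R, 14770469 to 14772630) came closest. Its candidate 28 bp upstream of the first TSS had a pooled signal of 110 (rank 3302), and a second, 23 bp upstream of an internal TSS, had 96.9 (rank 4026). Near the first TSS, replicate 1 had a candidate of rank 1193 (signal 65.7), whereas that of replicate 2 had rank 7828 (signal 49.4). Near the internal TSS, replicate 2 had a candidate of rank 4804 (signal 64.9), 24 bp upstream. Replicate 1 had a candidate of rank 13905 (signal 18.4) 6 bp downstream and a stronger one of rank 3482 (signal 35.9) further away, 192 bp downstream of another internal TSS.

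CTCF (FBgn0035769, 3L, 7353578 to 7356713) had no pooled candidate. Replicate 1 had a candidate 65 bp downstream of its TSS with a signal of 29.9 (rank 4825), and replicate 2 had none within 500 bp of the TSS. Its best candidate in replicate 2, at rank 13336, lay 1817 bp downstream. The nearest thresholded summit was 11.6 kb away, at the promoter of Cln7.

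su(Hw) (FBgn0003567, 3R, 14304455 to 14308589), which encodes the protein that binds the gypsy insulator, had pooled candidates of ranks 27124 and 28567 only, near the end of the list. Within 500 bp of its TSS the best ranks were 13582 in replicate 1 (signal 18.5, where the median of that list was 17.7) and 22363 in replicate 2 (signal 27.6, median 34.4). The best candidate of replicate 1 lay 1964 bp upstream, at rank 5632 (signal 27.7). The lists include background entries, and none of these candidates was in the thresholded set. A pooled candidate of any strength was found at 9 of the 10 genes and at 70.5% of all protein-coding genes. All 10 had a candidate in replicate 1 and all 10 in replicate 2, against 67.7% and 72.1% of all protein-coding genes.

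At the thresholded summits of the group the replicates were close in position and less so in rank. Replicates 1 and 2 gave ranks of 2545 and 299 at the internal Trl summit 14757201, and 572 and 2376 at M1BP. All 14 had a candidate within 200 bp in both replicates, compared with 94.6% of all 2790 thresholded peaks. Among the 2790 strongest candidates of each replicate, 12 of the 14 were found in both, compared with 60.0%. The exceptions were the summits at pzg and upstream of tin, both of which were below that rank in replicate 2. Replicate summits lay at most 51 bp from the pooled position. Spearman's rho between the ranks in the replicates was 0.66 over the 14 summits and 0.43 over 2640 thresholded peaks, given as a description since the summits share libraries and several share a gene. The set was itself taken from the pooled list of both replicates by the authors' reproducibility procedure, so these shares and this rho partly reflect its construction. Each of the 14 summits had the same rank in the pooled list and in the set. Down to the pzg peak at rank 2602, therefore, no stronger pooled candidate was left out. Membership does not show that a single peak was reproducible, as the shares of 94.6% and 60.0% for the whole set make plain.

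Of the 14 summits, 9 held at least 1 motif of the encoded factors or of homeodomain proteins, and 5 held none. The share of all thresholded summits with at least 1 of these motifs is not given here, so nothing is read from this count. The letters searched on both strands within 100 bp were TATCGATA for Dref, CGATA for BEAF-32, GGTCACACT for M1BP, GAGAG for the GAGA factor, AGNTGGCGC for CTCF, TGCATA for su(Hw) and TAATTA for homeodomain proteins. Every TATCGATA contains CGATA. No summit of the group held the DRE, the M1BP core or the CTCF core, which occurred at 3.3%, 1.5% and 1.4% of all thresholded summits. CGATA was present at 4 of 14 (28.6%), namely Chro, Dref, pzg and the internal Trl promoter, compared with 29.0% of all thresholded summits and 24.5% of the 26849 pooled candidates that overlapped none.

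GAGAG was present at 2 of 14 (14.3%), both at Trl, compared with 25.5% of all thresholded summits and 23.6% of the other candidates. TGCATA was present at 2 (14.3%), at M1BP and at the stronger mod(mdg4) summit, compared with 13.9% and 12.6%. TAATTA was present at 3 (21.4%), at pzg and at 2 Trl summits, compared with 14.6% and 11.0%. So few summits give shares with little precision.

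**Figure D5:**
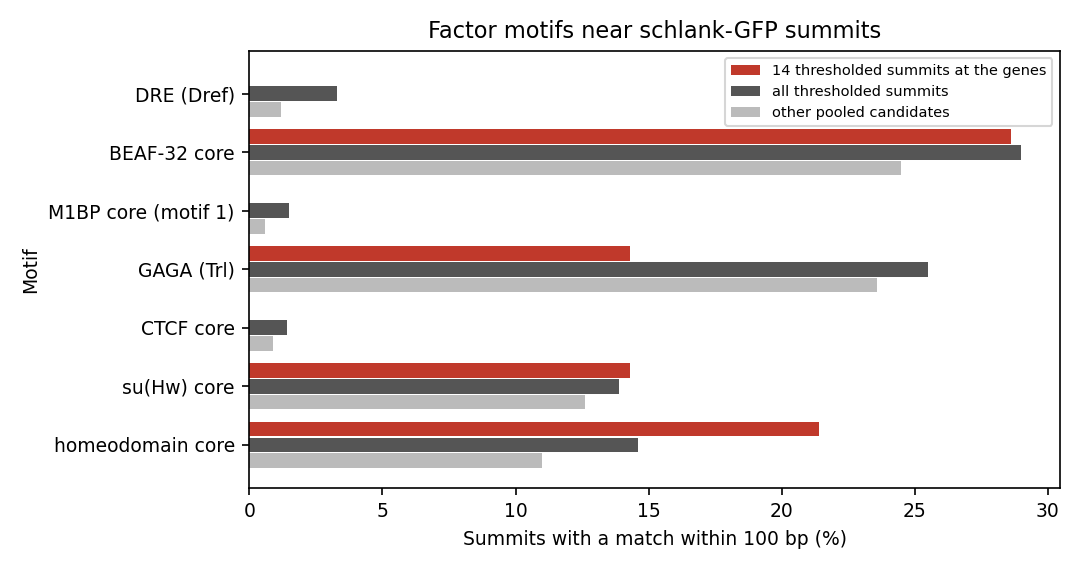
Percentage of summits with a match to each factor motif within 100 bp, for the 14 thresholded summits at the genes, all thresholded summits and the other pooled candidates. The bars of the 14 summits are at 0 for the DRE, the M1BP core and the CTCF core and reach 28.6% for the BEAF-32 core.

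The promoters themselves, from 250 bp upstream to 50 bp downstream of any TSS, were searched for the same letters. The DRE was present at BEAF-32, CTCF, Cp190 and mod(mdg4), 4 of the 10 genes, compared with 10.2% of all protein-coding genes. Of these 4, only Cp190 had a thresholded promoter summit, and the DRE there lay more than 100 bp from it. CGATA was present at 7 of 10 promoters, compared with 53.1% of all, and the M1BP core at su(Hw) alone, compared with 6.8%. GAGAG was present at Trl alone (36.4% of all). Genes with several start sites had more sequence searched, and the genes and motifs were chosen with earlier results known. Nothing is therefore read from these differences. A match of letters is a description, and binding of these factors was not measured here.

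Related genes outside the group were counted in the same way. In 6 further lists with 45 genes in all, 10 had a thresholded promoter summit, against 12.7% of all protein-coding genes. None of the 8 other insulator protein genes (pita, ZIPIC, dwg, Ibf1, Ibf2, Clamp, Opbp and l(3)mbt) had a thresholded summit there or anywhere within 2 kb of a TSS or inside the gene. By that wider rule 21.0% of all protein-coding genes had one, and a count over 8 genes has little precision.

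Cohesin and its loaders had 3 of 9, namely pds5, a cohesin regulator (rank 185), SMC1, a core subunit (rank 2106), and Mau2 of the loading complex (rank 2600). Condensin genes had 2 of 7, the core subunit gene SMC2 (rank 665) and Cap-H2 (rank 2349). The peaks of pds5, Mau2, SMC2 and Cap-H2 each lay within 500 bp of the TSS of another protein-coding gene as well. Insulator cofactors had 2 of 4, shep (rank 1057) and east (rank 2711), and interband and remodelling partners 1 of 9, Trf2 (rank 2713).

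BTB and GAGA-associated factor genes, which include relatives of Trl, had 2 of 8 at a promoter, lola (rank 537) and psq (rank 2304). By the wider rule 7 of these 8 had a thresholded summit, with 13 summits among them, compared with 21.0% of all protein-coding genes. The same rule gave 2 of 4 insulator cofactors, 3 of 9 for cohesin and its loaders and 2 of 7 for condensin. It gave 2 of 9 interband and remodelling partners, and 16 of the 45 genes of all lists. The psq summit had a candidate of rank 6398 in replicate 1 and 2220 in replicate 2. Gene length was not held equal in these counts, and its part in them was not tested.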

How the data were processed

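ChIP-seq peaks of schlank-GFP were taken from 4 deposited lists on assembly dm6, namely 1 candidate list per replicate and 1 of both replicates pooled (30000 entries each), and the thresholded set (2790). Per the file lists deposited with each library, candidates include background because they were the input to IDR, which ranks peaks by reproducibility, and the thresholded peaks are its optimal set. Which aligner, peak caller and threshold were used is not given in the sources used here. Chromatin was sonicated to 200 to 800 bp, per the labels. The signal deposited per peak is the authors' value. The deposited −log10 q of the authors was read but decided no result. Depth is unknown, since the lists hold no read counts, and control data were not used here.

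Summits are the peak start plus the deposited offset. Annotation was Ensembl release 115 (BDGP6.54), transposable elements left out, on 6 chromosome arms. A promoter summit lies within 500 bp of any annotated TSS, and replicate candidates were matched within 200 bp. Divergent partners, motif shares and gene lengths were counted over the same annotation. Sequence came from the RefSeq copy of Release 6. Samples were grouped by the antibody field, and no test was run, because the 2 samples form 1 group and the genes, gene lists and motifs were chosen with earlier results of these data known. All 10 genes and every thresholded summit at them are named, with up to 4 genes per further list by promoter signal and the genes that share a summit; divergent partners of unmarked promoters, the 8 unmarked insulator genes and the pre-mod(mdg4) units were added after their values were seen. Alternatives covered other windows, stronger peaks, each replicate alone and other matching distances. Assignment and motif search were checked on planted cases. The tools were pandas 2.3.3, numpy 2.4.6, scipy 1.17.1 and matplotlib 3.10.9 under Python 3.11.15.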

Additional observations from a re-analysis of the deposited data

How the results depend on the processing

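The same 6 genes had a promoter peak under windows of 250 and 1000 bp and with start sites of protein-coding transcripts alone, and the same 7 had a thresholded summit within 1 kb or inside the gene. Taking the 2790 strongest candidates of a single replicate gave 5 to 8 genes with a promoter peak (12.2% of all protein-coding genes without replicate 1 and 12.9% without replicate 2), 6 to 8 by the wider rule and 12 to 16 summits. Without replicate 1, pzg was lost, and without replicate 2, BEAF-32 was gained under both rules and mod(mdg4) at its promoter. In the stronger 50% of peaks, pzg was lost and 4 of the 45 related genes had a promoter peak, near the 7.16% of all protein-coding genes; leaving out a replicate gave 9 to 11. Counting only summits inside the gene left 3 genes and 8 summits, since the summits of Dref, Cp190, pzg and M1BP lie upstream. No share of all protein-coding genes is given for other windows or start sites, or for summits inside the gene. The same holds for the wider rule in single replicates. Those counts show only which genes of the group changed. The median percentile of the strongest summit per gene was 92.9 in the thresholded set and 99.3 among pooled candidates, a longer list. Within 50 bp of the summit, the number of summits with a match, summed over the motifs, was 3 in place of 11. No paired analysis was possible because both samples belong to 1 group. Read depth and control signal are unknown, which limits what the absence of a peak can show.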
